A study of Homo sapiens with 12 samples.

Results

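The Hedgehog pathway was followed through 9 genes of cerebral organoids with and without FEZ1: the ligand gene SHH, the receptor genes PTCH1, GAS1, BOC and HHIP, the transducer gene SMO, and the effector genes GLI1, GLI2 and GLI3. They were taken by gene symbol from a table of 28207 genes, and all 9 symbols were found once in it. All 9 passed the filter on low counts, as did 17757 genes in all, and SHH passed it through the day 60 libraries, since it had 7 counts in the wildtype and 5 in the knockout libraries of day 10. The RNA-seq libraries came from organoids of the established human embryonic stem cell line H1, labelled wildtype or FEZ1-null and collected on day 10 or day 60. Each genotype had 4 libraries on day 10 and 2 on day 60. The labels do not give the edit, the number of clones behind the FEZ1-null organoids or the number of organoids per library. Nothing says that a group's libraries were separate cultures either, so p-values speak only for the spread among libraries, which can be technical.

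Hedgehog ligands bind the receptor PTCH1, which without ligand holds the membrane protein SMO inactive. Active SMO acts at the primary cilium on the GLI transcription factors, of which GLI3 serves mostly as a repressor, GLI2 mostly as an activator and GLI1 as an activator that is itself switched on by the pathway. PTCH1 and HHIP are pathway targets too, and both restrain the signal, whereas GAS1 and BOC help PTCH1 to bind ligand. In the developing brain and spinal cord, SHH from the notochord, floor plate and ventral forebrain sets ventral cell identities and drives the division of progenitors.

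Libraries held 15.7 M to 22.7 M counts. Levels are CPM (counts per M counts of the library) scaled by edgeR's TMM factors, adjusted p-values come from edgeR's two-sided quasi-likelihood test, Benjamini-Hochberg over 17757 genes, where no other tool is named, and a gene is called at an adjusted p below 0.05. FEZ1, which encodes a kinesin adaptor, stood at 40.5, 43.3, 45.5 and 49.0 CPM in wildtype replicates 1 to 4 at day 10, and at 22.7, 20.2, 20.02 and 19.4 CPM in the knockout. On day 60 wildtype libraries held 239.9 and 197 CPM and knockout libraries 47.6 and 48.4 CPM, so its transcripts were lower in every knockout library of each day but not absent. Wildtype replicates 1 and 2 of day 10, which share the label code B16, stood apart from the other day 10 libraries in markers of other cell types. Summed over 6 neural crest genes they held 766 and 1131 CPM, against 48.9 to 74.5 CPM in the other 6 libraries, and summed over 8 neuron genes 1885 and 2135 CPM against 630.4 to 938 CPM. Mesenchyme markers (7 genes) stood at 915 and 1219 CPM there against 191 to 339 CPM, floor plate markers (6 genes) at 170.3 and 219 CPM against 119.9 to 138 CPM, and retina markers (6 genes), lower, at 27.4 and 11.3 CPM against 99.4 to 262 CPM. Wildtype replicate 2 of day 60 held 330.4 CPM of endoderm and notochord markers, most of it the fetal liver and yolk sac gene AFP at 301 CPM, against at most 0.781 CPM in any other library. The meaning of the codes (B16, B27 and B29) is not given. All day 60 libraries carry B16, and day 10 replicates carry B16, B16, B27 and B29.

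The pathway's own feedback gene PTCH1 and the effector gene GLI2 have a GLI binding motif upstream of an annotated start, and HHIP, another feedback gene, does not in the window searched, so the upstream sequences of these 3 genes are shown for the results on targets. The motif searched was TGGGTGG, with its longer form TGGGTGGTC, on both strands, and the longer form contains the shorter one. The 250 bases before the start are printed 5′ to 3′ on the gene's strand, from RefSeq on GRCh38.p14, with the motif in capitals. PTCH1 is given at chr9:95509267-95509516 (minus strand), GLI2 at chr2:120735618-120735867 (plus strand) and HHIP at chr4:144645906-144646155 (plus strand).
PTCH1: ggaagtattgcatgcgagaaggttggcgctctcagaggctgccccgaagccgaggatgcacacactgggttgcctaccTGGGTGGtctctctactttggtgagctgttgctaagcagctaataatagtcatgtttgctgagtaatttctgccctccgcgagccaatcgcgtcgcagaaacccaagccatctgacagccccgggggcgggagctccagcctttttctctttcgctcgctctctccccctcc
GLI2: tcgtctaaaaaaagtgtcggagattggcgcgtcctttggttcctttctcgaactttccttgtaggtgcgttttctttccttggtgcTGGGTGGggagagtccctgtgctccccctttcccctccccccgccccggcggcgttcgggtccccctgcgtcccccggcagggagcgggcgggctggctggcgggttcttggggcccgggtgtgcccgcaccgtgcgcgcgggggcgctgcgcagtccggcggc
HHIP: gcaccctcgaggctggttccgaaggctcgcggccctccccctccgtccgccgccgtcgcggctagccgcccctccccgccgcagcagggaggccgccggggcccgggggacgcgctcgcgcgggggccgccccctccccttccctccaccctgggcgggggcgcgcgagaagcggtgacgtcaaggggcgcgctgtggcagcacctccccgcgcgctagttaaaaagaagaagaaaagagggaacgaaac
The motif starts at position -172 in PTCH1, where the next 2 bases complete the longer form, and at -164 in GLI2. RefSeq windows of 300 bases, from 250 before to 50 after each start, were found for 7 of the 9 genes (13 windows). None was found for GLI1 and GLI3, which were therefore not searched. The motif was in 2 of the windows, those of PTCH1 and GLI2 shown above, and not in the other annotated starts of these genes. Over all 35116 windows of that length, 9.19% hold the shorter motif and 0.236% the longer one, and 11.0% of all genes with a window hold the shorter motif in any of theirs. A match is a description of the letters and not a binding site shown in these organoids.

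Between day 10 and day 60 the pathway's transcripts shifted in composition in both genotypes. SHH, with few or no counts at day 10, rose, while the receptor and effector genes that were abundant at day 10 (PTCH1, SMO, GLI2, GLI3, GAS1 and BOC) fell. In wildtype, 7 of the 9 genes were called, 1 higher and 6 lower, where 55.4% of all genes tested were called. In knockout, 9 of 9 were called, 3 higher and 6 lower, where 57.6% of all genes were called. SHH is counted among the higher ones although it entered the test through its day 60 libraries, and the knockout calls of GLI1, HHIP and GAS1 were each lost without 1 or more single libraries. The median log2 fold change of the 9 genes was -1.05 in wildtype and -1.01 in knockout, against -0.01 and 0.03 over all genes tested. In bulk RNA, fewer cells of a type and less RNA per cell cannot be told apart.

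**Figure D1:**
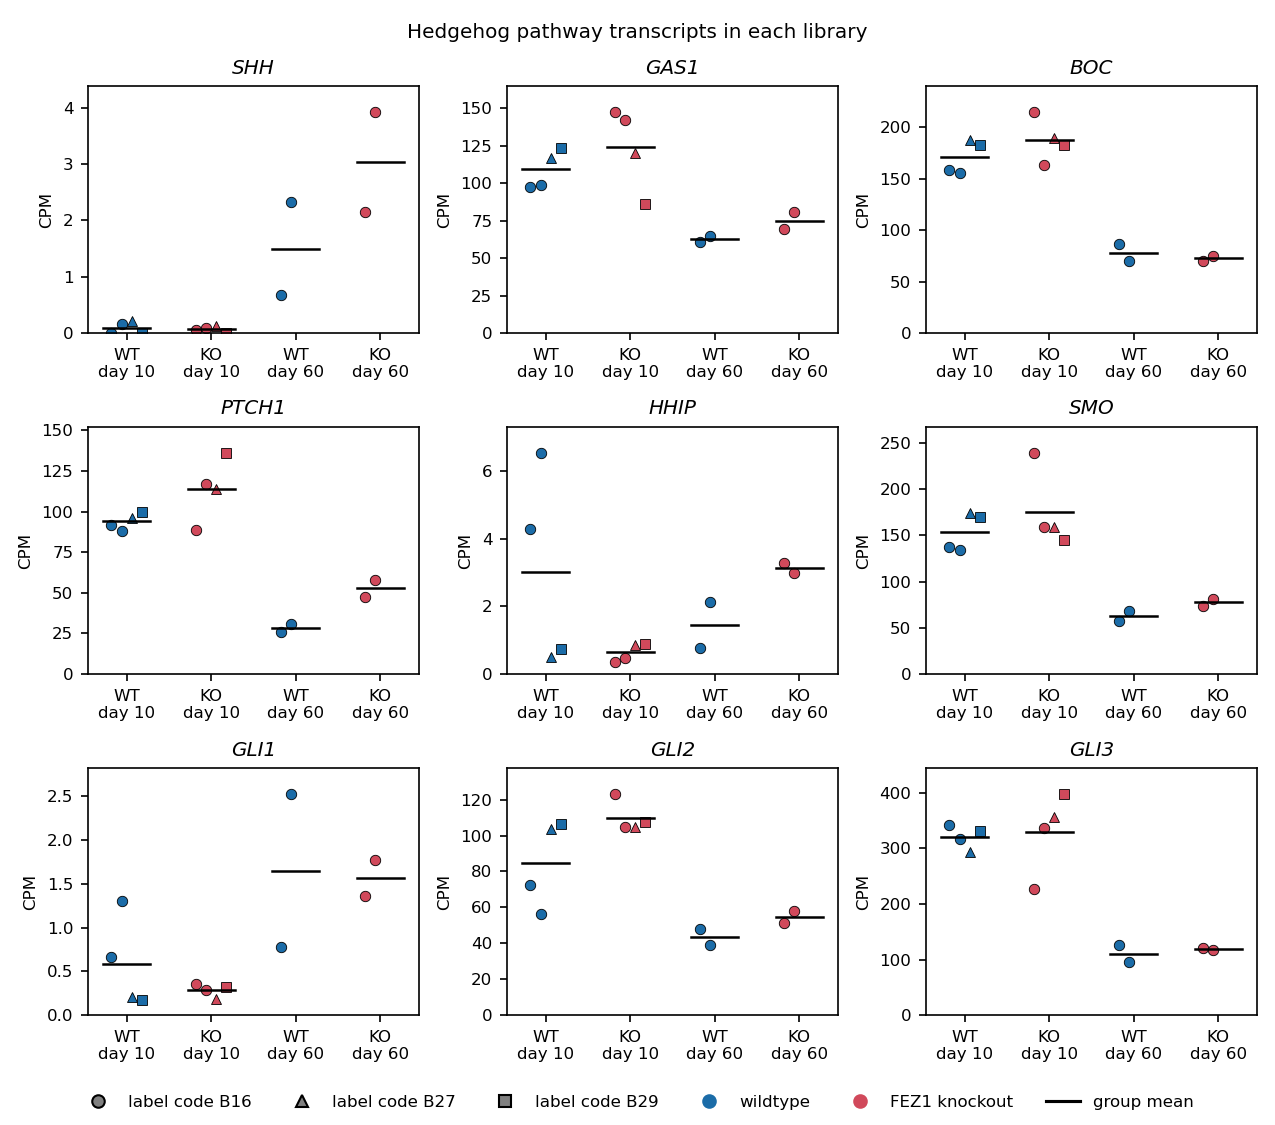
Level of each Hedgehog pathway gene in each of the 12 libraries (vertical axes in CPM from 0, each with its own scale), by genotype and day, with the group mean as a line and the label code as the point's shape. SHH is near 0 in all day 10 libraries, PTCH1, SMO, GLI2, GLI3, GAS1 and BOC are lower at day 60 than at day 10, and HHIP is highest in the 2 B16 wildtype libraries of day 10.

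SHH encodes the secreted ligand. Its level was 0, 0.156, 0.206 and 0 CPM in wildtype replicates 1 to 4 at day 10, and 0.677 and 2.32 CPM in the day 60 replicates. In knockout it was 0.0582, 0.0939, 0.121 and 0 CPM at day 10, and 2.15 and 3.91 CPM at day 60. Every day 60 library was above every day 10 library, and the libraries without a count allow up to 0.134, 0.171 and 0.193 CPM (3 counts each, for counting error only). The pooled counts, scaled to library size, rose 17.0-fold in wildtype (95% counting interval 7.75 to 44.1) and 43.4-fold in knockout (18.1 to 136). The fitted log2 fold changes were 3.97 ± 0.83 and 5.30 ± 0.84 (SE). Because the filter let SHH in through the libraries in which it is high, its test was taken from the fit without a filter on low counts, where edgeR gave 3.95 (adjusted p = 0.00141) and 5.30 (adjusted p = 0.000160). The wildtype value rested on few counts, and leaving out 1 library at a time moved it from 2.83 without replicate 2 of day 60 (adjusted p = 0.0401) to 4.71 without replicate 3 of day 10 (adjusted p = 0.00200).

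The co-receptor genes GAS1, which encodes a lipid-anchored ligand-binding protein, and BOC, which encodes an immunoglobulin family membrane protein, both fell. GAS1 went from 97.5, 98.4, 117 and 124 CPM to 60.4 and 64.6 CPM in wildtype and from 147, 142, 120.0 and 86.3 CPM to 69.1 and 80.9 CPM in knockout. No day 60 library reached the lowest day 10 library of its genotype, though replicate 4 of day 10 and replicate 2 of day 60 were close in knockout. The log2 fold changes were -0.80 ± 0.21 (adjusted p = 0.00688) in wildtype and -0.72 ± 0.21 (adjusted p = 0.0112) in knockout. Leaving out a day 60 library leaves 1 in its group, which is then assumed to vary like the libraries of the other groups. The call in wildtype was lost without wildtype replicate 1 of day 60 (adjusted p = 0.0598), and the call in knockout without knockout replicate 1 of day 60 (adjusted p = 0.106).

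BOC went from 158, 155, 187 and 183 CPM to 86.3 and 70.1 CPM in wildtype, and from 214, 163, 189.7 and 182 CPM to 70.3 and 75.1 CPM in knockout. The days were far apart in both genotypes, with log2 fold changes of -1.13 ± 0.16 (adjusted p = 0.000118) and -1.36 ± 0.16 (adjusted p = 3.17e-05). Exons of BOC share 513 of 10330 bases with CFAP44 on the opposite strand, and whether counting used the strand is not given, so reads from those bases could not be told apart.

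PTCH1, the receptor that restrains SMO, stood at 91.7, 88.0, 96.3 and 99.8 CPM in wildtype at day 10 and at 25.6 and 30.6 CPM at day 60. In knockout it stood at 88.9, 117, 114 and 136 CPM and then at 47.7 and 58.0 CPM. All day 60 libraries lay below all day 10 libraries, and at day 60 the knockout libraries lay above the wildtype ones. The fall was 3.34-fold in wildtype (log2 fold change -1.74 ± 0.19, adjusted p = 1.69e-05) and 2.16-fold in knockout (-1.11 ± 0.18, adjusted p = 0.000296).

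SMO, the membrane protein that carries the signal into the cell, fell in both genotypes as well. Wildtype organoids held 138, 134, 174.5 and 169 CPM at day 10 against 57.3 and 68.3 CPM at day 60, and knockout organoids 238, 159, 159 and 145 CPM against 74.0 and 81.6 CPM. The day 60 values were well below all those of day 10, with log2 fold changes of -1.29 ± 0.22 (adjusted p = 0.000434) and -1.17 ± 0.22 (adjusted p = 0.000755).

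Of the effectors, GLI3, the main repressor, had the largest fall of the 3 in both genotypes. It stood at 342, 318, 293 and 331 CPM and then 126 and 95.2 CPM in wildtype, and at 228, 337, 357 and 397 CPM and then 120.0 and 118 CPM in knockout. Days did not overlap, and the log2 fold changes were -1.54 ± 0.21 (adjusted p = 0.000116) and -1.47 ± 0.21 (adjusted p = 0.000144). GLI2, the main activator, had 72.3, 56.0, 104 and 106 CPM at day 10 and 48.0 and 38.7 CPM at day 60 in wildtype. The 2 B16 wildtype libraries of day 10 were the lower ones of their group and lay closest to day 60. In knockout GLI2 had 123, 105, 105 and 108 CPM and then 51.2 and 57.9 CPM, with no overlap. The log2 fold changes were -0.96 ± 0.24 (adjusted p = 0.00566; 0.0650 without wildtype replicate 2 of day 60) and -1.01 ± 0.24 (adjusted p = 0.00406).

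GLI1, the activator that is itself a target, was scarce throughout. It had 0.668, 1.30, 0.206 and 0.171 CPM in wildtype at day 10 and 0.781 and 2.52 CPM at day 60, so that the highest day 10 library, with code B16, lay above the lower day 60 library. In knockout it rose from 0.349, 0.282, 0.182 and 0.322 CPM to 1.36 and 1.78 CPM, without overlap. The log2 fold change in wildtype was 1.47 ± 0.66 and did not pass the test (adjusted p = 0.0762), and that in knockout was 2.44 ± 0.71 (adjusted p = 0.0114). The knockout call was lost without knockout replicate 2 of day 60 (adjusted p = 0.0699), and a wildtype call was gained without wildtype replicate 2 of day 10 (2.19, adjusted p = 0.0113), without wildtype replicate 1 of day 60 (2.08, adjusted p = 0.0382) or without both B16 wildtype libraries of day 10 (3.05, adjusted p = 0.00232). Without wildtype replicate 2 of day 60 the wildtype value was 0.40 (adjusted p = 0.725).

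HHIP, a membrane protein that binds and sequesters the ligand, had opposite signs of change in the 2 genotypes. In wildtype it had 4.28, 6.52, 0.514 and 0.742 CPM at day 10 and 0.781 and 2.12 CPM at day 60. The 2 high day 10 values are those of the B16 libraries, and the other 2 lay below both day 60 libraries. In knockout it had 0.349, 0.469, 0.849 and 0.900 CPM and then 3.28 and 2.997 CPM, with every day 60 library higher. The log2 fold change was -1.05 ± 0.87 in wildtype (adjusted p = 0.325) and 2.29 ± 0.85 in knockout (adjusted p = 0.0356). The wildtype value turned to 1.18 (adjusted p = 0.0988) without the 2 B16 wildtype libraries of day 10. The knockout call was lost without knockout replicate 1, 2 or 3 of day 10 or without either knockout library of day 60, with adjusted p from 0.0517 to 0.115, and with the label code as a term (adjusted p = 0.210). Exons of HHIP share 178 of 12074 bases with HHIP-AS1 on the opposite strand. HHIP-AS1 followed the same split, with 1.47 and 2.24 CPM in the B16 wildtype libraries of day 10 and 0.141 to 0.513 CPM in the other day 10 libraries.

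**Figure D2:**
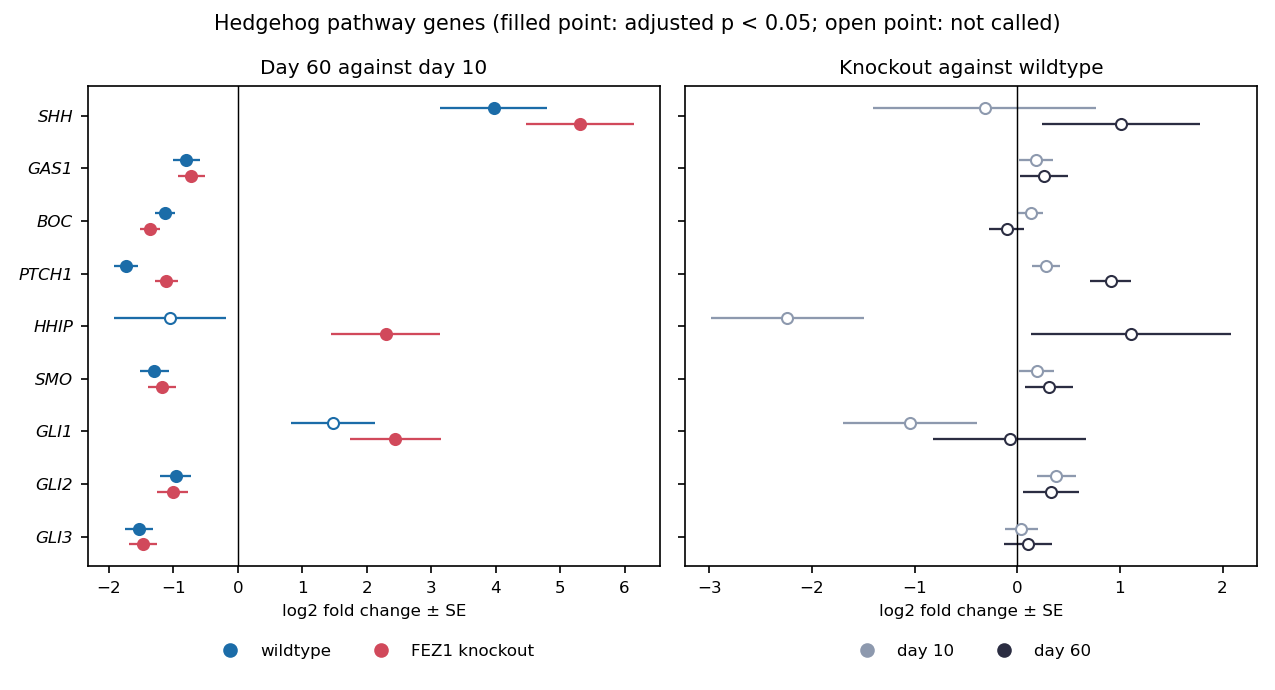
Fitted log2 fold changes with standard errors (horizontal axes) of the 9 genes, for day 60 against day 10 in each genotype and for knockout against wildtype at each day. Filled points are called: 7 of 9 in wildtype and 9 of 9 in knockout for the days, and 0 of 9 for the genotypes at either day.

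Several marker lists moved with age as well, and their part in these changes was not tested. Markers of cycling cells (4 genes) summed to 1034 to 1667 CPM at day 10, 466 to 529 CPM in wildtype at day 60 and 773 to 800.1 CPM in knockout at day 60. Neuroepithelium and radial glia markers (6 genes) summed to 2513 to 3468 CPM at day 10, 1829 to 1853 CPM in wildtype at day 60 and 2292 to 2385 CPM in knockout at day 60. Within this sum, NES and VIM were lower in every day 60 library than in any day 10 library. FABP7 was higher, at 27.2 to 60.7 CPM at day 10 and 170 to 265 CPM at day 60. SOX2, HES5 and PAX6 overlapped between the days over all libraries. Neuron markers reached 3579 to 4785 CPM at day 60. Of the tissues known to secrete SHH, floor plate markers summed to 119.9 to 219 CPM at day 10 and to 30.2 to 74.5 CPM at day 60. Their defining gene FOXA2 was at most 0.504 CPM in any library. The genes of this sum did not move together. SPON1 stood at 72.6 to 105 CPM at day 10 and at 4.69 to 13.7 CPM at day 60, and LMX1A was lower as well. In knockout NTN1 was higher with age, at 7.65 to 20.7 CPM at day 10 and 37.6 and 56.5 CPM at day 60. Ventral forebrain markers (6 genes, 3 of them DLX genes) summed to 1.21 to 3.49 CPM at day 10, to 45.3 and 21.4 CPM in wildtype at day 60 and to 188 and 194 CPM in knockout at day 60, while their defining gene NKX2-1 had no count at day 10 and at most 0.406 CPM at day 60.

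Per kilobase of merged exons (GENCODE 29), the 9 genes kept nearly one order in all 4 groups. The divisor takes in every annotated exon (16591 bases for PTCH1, 2827 for GAS1), whichever transcripts were present. The order therefore depends partly on the annotation. In wildtype at day 10 GAS1 led with 38.6 ± 4.66 CPM per kb (SD, n = 4), followed by SMO at 35.7 ± 4.85, GLI3 at 29.3 ± 1.89, BOC at 16.5 ± 1.59, GLI2 at 11.5 ± 3.35 and PTCH1 at 5.66 ± 0.311 CPM per kb. HHIP, GLI1 and SHH stood far lower, at 0.249 ± 0.240, 0.140 ± 0.126 and 0.0180 ± 0.0211 CPM per kb. The ranges of mean ± SD overlapped between GAS1 and SMO, between SMO and GLI3, and among the last 3 genes, but not between GLI2 and PTCH1. Before division by length, PTCH1 (94.0 ± 5.17 CPM) lay above GLI2 (84.6 ± 24.6 CPM) in this group, with overlap. In knockout at day 60 GAS1 stood at 26.5 ± 2.96, SMO at 18.1 ± 1.25, GLI3 at 10.9 ± 0.135, GLI2 at 7.43 ± 0.642, BOC at 7.04 ± 0.333 and PTCH1 at 3.18 ± 0.438 CPM per kb (SD, n = 2), and here only GLI2 and BOC overlapped among these. SHH was then at 0.602 ± 0.247, GLI1 at 0.373 ± 0.0707 and HHIP at 0.260 ± 0.0166 CPM per kb. In all groups the ligand gene and the 2 scarce targets stood below PTCH1, which in turn stood below its co-receptors.

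The knockout was compared with wildtype at day 10 to ask whether the loss of FEZ1 shifts the pathway in young organoids. None of the 9 genes was called, by edgeR (0 of 9, with 1 at an unadjusted p below 0.05) or by DESeq2 (0 of 9), where edgeR called 0.124% and DESeq2 2.82% of all genes. By edgeR 2178 of the 17757 genes tested had an unadjusted p below 0.05, so 1 of 9 does not set these genes apart. PTCH1 averaged 94.0 ± 5.17 CPM in the wildtype libraries and 114 ± 19.3 CPM in the knockout ones (SD, n = 4), a difference of 0.28 ± 0.14 on the log2 scale (SE; adjusted p = 0.449). GLI2 stood at 84.6 ± 24.6 and 110.0 ± 8.75 CPM (0.38 ± 0.19, adjusted p = 0.458), with knockout replicate 1 at the top. The differences were smaller for SMO (0.19 ± 0.17), GAS1 (0.18 ± 0.17), BOC (0.13 ± 0.12) and GLI3 (0.04 ± 0.16). GLI1 had -1.04 ± 0.65, and SHH, on 12 counts in all, had -0.32 ± 1.09.

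The gene of the 9 with an unadjusted p below 0.05 was HHIP, with a mean of 3.01 ± 2.90 CPM in wildtype and of 0.642 ± 0.274 CPM in knockout (SD, n = 4). Its fitted log2 fold change was -2.24 ± 0.74 by edgeR (unadjusted p = 0.0114, adjusted p = 0.257). The authors' deposited table, a comparison of the genotypes whose header names no day, gives it -2.21 ± 0.734 (SE) on the log2 scale, with 0.0742 as adjusted p, and all 9 genes have adjusted p above 0.05 there. The high wildtype values were those of the 2 B16 libraries. Knockout minus wildtype in mean log2 CPM was -3.40 within B16 (2 libraries against 2), 0.62 within B27 and 0.25 within B29 (1 against 1 each, with no replicate check). Without the 2 B16 wildtype libraries the log2 fold change was 0.03 (adjusted p = 0.996).

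Other genes differed by label code as well. GLI2 was higher in knockout by 0.83 within B16 and by 0.01 and 0.02 within B27 and B29. GLI1 had -1.31, -0.11 and 0.62, SMO 0.52, -0.13 and -0.23, and GAS1 0.56, 0.04 and -0.52, in that order of codes. PTCH1 was the gene among the 9 with the same sign and over 0.1 in all 3 codes, at 0.18, 0.24 and 0.44. With the B16 libraries alone, 3 of the 9 genes were called at day 10, GLI2 (0.83, adjusted p = 0.0321), HHIP (-3.68, adjusted p = 0.00274) and GAS1 (0.56, adjusted p = 0.0489), where 11.4% of all genes were called. The neural crest, neuron, mesenchyme, floor plate and retina marker sums given above separate the 2 B16 wildtype libraries of day 10, and their part in the difference was not tested. The 2 B16 knockout libraries of day 10 also differed from each other. Replicate 1 held 238 CPM of SMO and 228 CPM of GLI3, against 159 and 337 CPM in replicate 2.

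**Figure D3:**
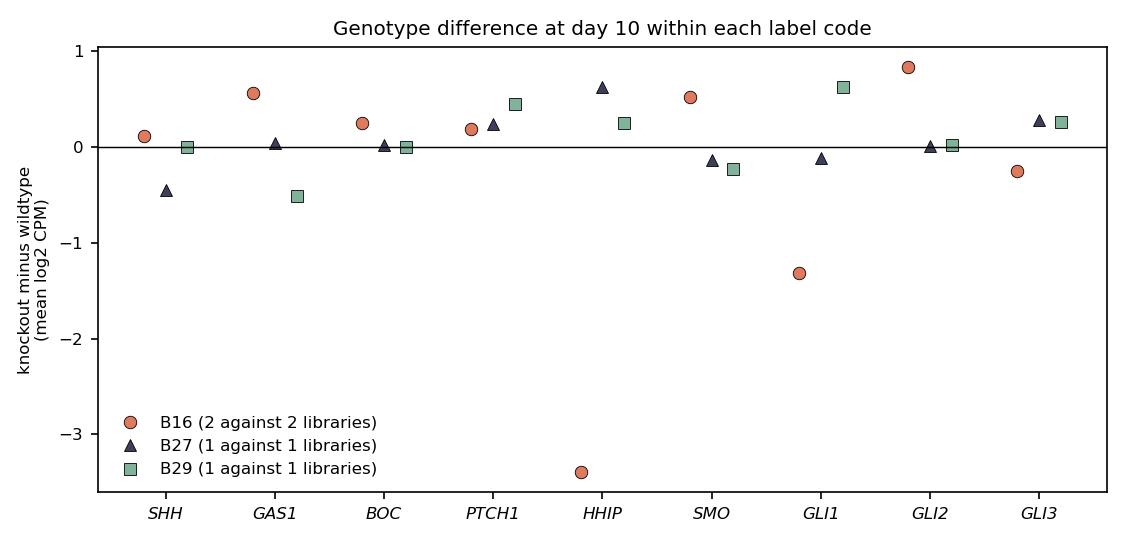
Difference between knockout and wildtype at day 10 within each label code, in mean log2 CPM (vertical axis), for each of the 9 genes. HHIP stands at -3.40 within B16 and above 0 within B27 and B29, while PTCH1 is above 0 in all 3 codes.

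**Figure D4:**
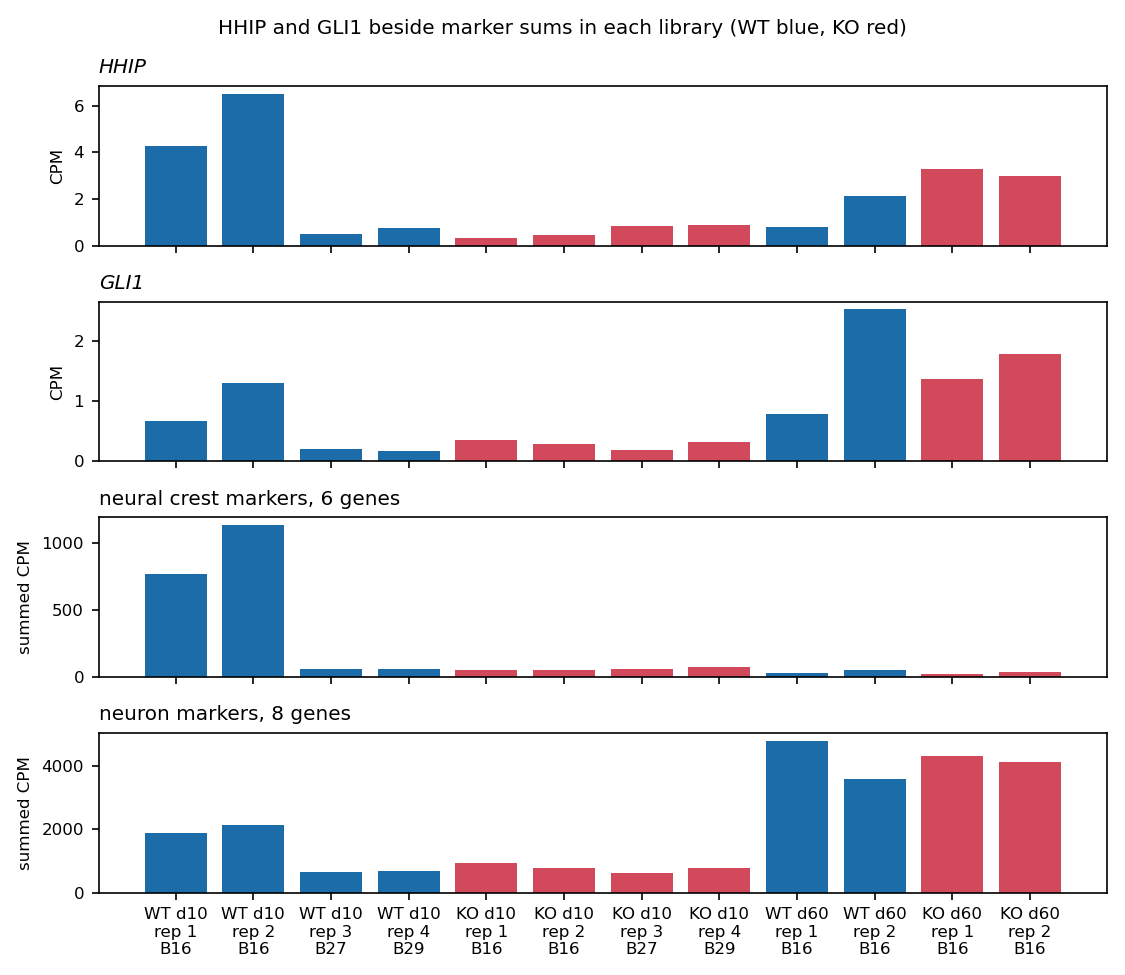
HHIP and GLI1 in CPM and the summed CPM of 6 neural crest and 8 neuron markers in each library (bars from 0, each panel with its own scale). The 2 B16 wildtype libraries of day 10 hold the highest HHIP and neural crest values, whereas the neuron sum is highest at day 60.

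At day 60 the same comparison was made in older organoids, with 2 libraries per genotype. By edgeR 0 of the 9 genes were called, with 1 at an unadjusted p below 0.05, where 0.0225% of all genes were called and 995 of 17757 had an unadjusted p below 0.05. DESeq2 called 1 of the 9, PTCH1, where it called 0.749% of all genes. Wildtype organoids held 28.1 ± 3.57 CPM of PTCH1 and knockout organoids 52.8 ± 7.26 CPM (SD, n = 2), 1.88-fold more, and both knockout libraries lay above both wildtype libraries. Its log2 fold change was 0.91 ± 0.20 by edgeR (unadjusted p = 0.000691, adjusted p = 0.328) and 0.91 by DESeq2 (adjusted p = 0.00722). Over the 12 alternatives tried the log2 fold change ranged from 0.76 to 1.05, and only DESeq2 called it.

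SHH averaged 1.499 ± 1.16 CPM in wildtype, below the 3.03 ± 1.25 CPM in knockout but with overlap between the genotypes (1.01 ± 0.77 on the log2 scale, adjusted p = 1). Its pooled counts, 59 and 115, gave a ratio of 2.04 with a counting interval of 1.47 to 2.84, which does not cover the spread between libraries. The fitted difference of SHH was 0.39 without wildtype replicate 1, 2.15 without wildtype replicate 2 and 0.52 without knockout replicate 2 (adjusted p = 1 in each). HHIP stood at 1.45 ± 0.946 and 3.14 ± 0.201 CPM without overlap (1.11 ± 0.97, adjusted p = 1), and its difference was 1.997 without wildtype replicate 2 (adjusted p = 1). SMO (0.31 ± 0.24), GLI2 (0.33 ± 0.27) and GAS1 (0.26 ± 0.23) were also higher in both knockout libraries than in both wildtype libraries, and none passed the test. With 2 libraries against 2, such a separation arises easily by chance, here as for PTCH1 and HHIP. How many of all genes separated in this way was not counted. GLI3 (0.10 ± 0.23), BOC (-0.10 ± 0.17) and GLI1 (-0.07 ± 0.75) overlapped.

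Wildtype replicate 2 of day 60, the library with endoderm markers, had the higher SHH, GLI1 and HHIP of the wildtype pair. It also held most of the counts of IHH, a ligand gene of the same family, at 3.23 CPM against 0.208 CPM in replicate 1 and at most 0.170 CPM in knockout at day 60. Without that replicate the log2 fold change of GLI1 between genotypes was 1.001 (adjusted p = 1). Mesenchyme markers stood at 1827 and 3830 CPM in the wildtype and at 561 and 718 CPM in the knockout libraries of day 60, retina markers at 64.4 and 105 CPM and at 183 and 194 CPM, and their part in the values of the 9 genes was not tested.

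Whether the change with age differed between genotypes was tested as an interaction. By edgeR 0 of the 9 genes were called, with 2 at an unadjusted p below 0.05, where 0% of all genes were called (1269 genes at an unadjusted p below 0.05), and DESeq2 called 0 of the 9 and 0.391% of all genes. One was PTCH1, whose log2 fold change with age was 0.63 ± 0.24 higher in knockout by edgeR (unadjusted p = 0.0228, adjusted p = 0.619). The other was HHIP, with 3.35 ± 1.24 by edgeR (unadjusted p = 0.0197, adjusted p = 0.619). Among the B16 libraries alone the HHIP difference was 4.79 (adjusted p = 0.00511), where 5.07% of all genes were called. The larger fall of PTCH1 in wildtype and the opposite signs of HHIP were therefore not shown to differ between genotypes over all libraries.

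The rest of the pathway was read from 7 lists of other genes. Between genotypes 0 of the 54 genes tested in them were called by edgeR at either day or in the interaction. Counts of called genes with age stand beside the 55.4% of all genes called in wildtype and the 57.6% in knockout, and no list was tested against all genes. Of 6 ligand and release genes tested, 5 were called in wildtype (1 higher, 4 lower) and 6 in knockout (2 higher, 4 lower). SCUBE2, which helps to release lipid-modified ligand, fell from 34.0 ± 4.84 to 0.644 ± 0.268 CPM in wildtype (log2 fold change -5.71 ± 0.36, adjusted p = 4.86e-07) and by 5.91 on the log2 scale in knockout. HHAT, the enzyme that attaches palmitate to the ligand, fell by 2.19 and 1.80, and SCUBE3 by 1.39 and 1.34. SCUBE1 rose by 2.03 and 0.88. DHH, a ligand gene related to SHH, rose by 2.96 in knockout, a call lost without knockout replicate 2 of day 10 or either knockout library of day 60 (adjusted p from 0.0531 to 0.0836), and had 1.76 in wildtype (adjusted p = 0.0928).

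Among other reception genes, GPC3, a glypican that binds Hedgehog ligand, fell by 3.96 in wildtype and 5.93 in knockout. Its wildtype level at day 60 was 6.88 CPM in replicate 1 and 49.1 CPM in replicate 2, the library with endoderm markers, against 6.11 and 11.99 CPM in knockout. Without replicate 2 the wildtype log2 fold change was -5.99 (adjusted p = 6.17e-06), and without replicate 1 it was -3.15 (adjusted p = 0.000134). LRP2, an endocytic receptor of the forebrain, fell by 2.43 and 1.94. CDON, a co-receptor related to BOC, was not called with age. At day 10 all 4 knockout libraries had less CDON than any wildtype library (109 ± 28.02 against 170.1 ± 24.7 CPM, log2 fold change -0.65 ± 0.19, adjusted p = 0.226).

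**Figure D5:**
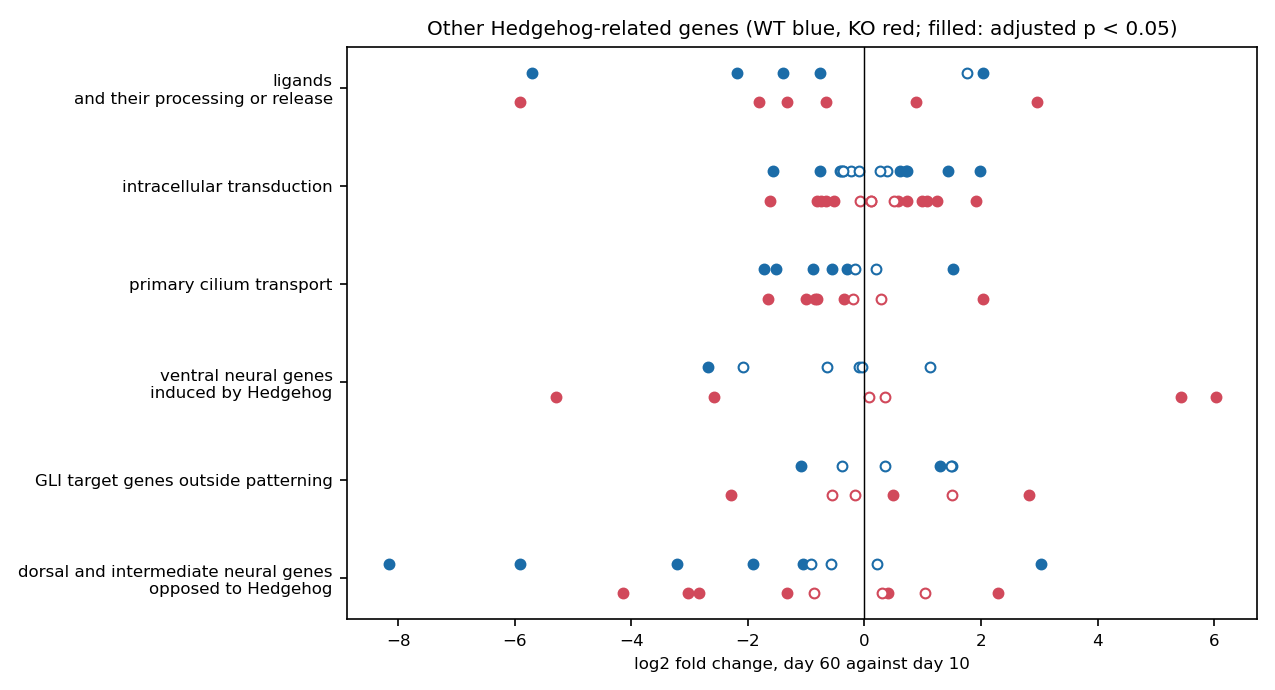
Log2 fold change of day 60 against day 10 (horizontal axis) for each tested gene of 6 lists of other Hedgehog-related genes, in wildtype and knockout, with called genes filled. SCUBE2 is the lowest point among the ligand and release genes (-5.71 and -5.91), and most of the called cilium transport genes lie below 0.

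Of 15 intracellular transduction genes, 8 were called in wildtype (5 higher, 3 lower) and 11 in knockout (6 higher, 5 lower). PRKACB, a catalytic subunit of the protein kinase A that marks GLI proteins for processing, rose by 1.98 and 1.92. The kinase gene ULK3 rose by 1.44 and 1.25, EVC2, a ciliary partner of SMO, fell by 1.56 and 1.62, STK36 fell by 0.77 and 0.81, and GPR161, a ciliary receptor that holds the pathway down, rose by 0.71 and 1.07. Of 8 cilium transport genes 6 were called in each genotype, 1 higher and 5 lower. DYNC2H1, the retrograde motor, fell by 1.73 and 1.65, IFT88 by 1.53 and 0.997, RPGRIP1L by 0.89 and 0.84, and KIF3A, a subunit of the anterograde motor, rose by 1.52 and 2.03. Without 1 of the day 60 libraries RPGRIP1L was no longer called in either genotype (adjusted p from 0.0526 to 0.0592), nor IFT88 in knockout (0.0785 without replicate 1).

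Genes that Hedgehog signalling controls in neural tissue moved in both directions. Of 10 ventral genes induced by the pathway 6 could be tested, and 1 was called in wildtype (lower) and 4 in knockout (2 higher, 2 lower). NKX6-1, a ventral progenitor factor, fell by 2.68 in wildtype and 2.57 in knockout. FOXA1 fell by 5.29 in knockout (adjusted p = 0.00532; 0.0542 without knockout replicate 1 of day 60, and a log2 fold change of -5.99 without replicate 2) and had -2.08 in wildtype (adjusted p = 0.116). OLIG2, a factor of ventral and oligodendrocyte progenitors, rose in knockout from 0.139 ± 0.109 CPM (SD, n = 4) to 8.94 ± 0.0772 CPM (n = 2), by 6.03 ± 1.06 on the log2 scale (adjusted p = 0.000545). In wildtype OLIG2 had 1.69, 2.61, 0.206 and 0.0570 CPM at day 10 and 1.56 and 3.48 CPM at day 60, the B16 libraries of day 10 being the higher ones, and was not called. OLIG1, the other gene called higher in knockout, entered the test through the knockout libraries of day 60 alone, and its values are a description. It had 0, 0.0469, 0 and 0.0643 CPM in knockout at day 10 and 1.41 and 1.57 CPM at day 60, whereas no wildtype library of either day was above 0.312 CPM.

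Of 9 dorsal and intermediate genes tested, 6 were called in each genotype (1 higher and 5 lower in wildtype, 2 higher and 4 lower in knockout). EMX1, a marker of dorsal forebrain, rose by 3.02 and 2.30. EMX2, another dorsal forebrain gene, went the other way. Its wildtype libraries held 124 to 183 CPM at day 10 and 80.3 and 64.6 CPM at day 60. Its knockout libraries held 128 to 197 CPM and then 64.8 and 64.1 CPM. DBX1, of intermediate progenitors, fell by 3.21 and 4.14, to at most 0.152 CPM at day 60. It is counted among the lower ones although it entered the test through the day 10 libraries alone, so its falls are a description. PAX7, of dorsal progenitors, fell by 5.91 and 3.03, PAX3 by 8.17 in wildtype, with -0.86 in knockout (adjusted p = 0.596), and MSX1 by 1.92 and 2.84. The wildtype falls of PAX3 and PAX7 started from the 2 B16 libraries of day 10, with 113 and 175 CPM of PAX3 against 7.09 and 7.13 CPM in the other 2, and 32.5 and 49.9 CPM of PAX7 against 9.30 and 8.56 CPM. Without these libraries the wildtype log2 fold changes were -4.79 for PAX3 (adjusted p = 0.00373) and -4.45 for PAX7 (adjusted p = 3.27e-05). Without replicate 2 of day 10 alone PAX3 had -7.33, and without replicate 1 of day 60 PAX7 had -6.60. In knockout PAX7 had -2.44 without replicate 1 of day 60 (adjusted p = 0.0736) and -4.11 without replicate 2 (adjusted p = 0.0190), and MSX1 had -3.68 without replicate 2. Of 6 GLI targets outside patterning, 3 were called in each genotype. CCND2, a cyclin, rose by 1.29 in wildtype and 0.49 in knockout, where the call was lost without replicate 3 or 4 of day 10 or either library of day 60 (adjusted p from 0.0521 to 0.188). The survival gene BCL2 rose by 1.498 and 2.82. Its wildtype level at day 10 was 7.80 and 12.8 CPM in the B16 libraries and 3.598 and 4.39 CPM in the other 2, and without the B16 libraries it rose by 2.31 (adjusted p = 0.000112), while without wildtype replicate 1 of day 60 it was not called (adjusted p = 0.0575). CCND1 fell by 1.09 in wildtype (adjusted p = 0.00368; 0.0505 without replicate 1 of day 60) and had -0.55 in knockout (adjusted p = 0.0768). FOXF1 fell by 2.28 in knockout (adjusted p = 0.0218), with -2.12 without replicate 1 of day 60 and -2.47 without replicate 2, and the call was lost in both cases. In wildtype FOXF1 had 1.49 (adjusted p = 0.0583). Its wildtype levels were 1.47, 0.573, 1.08 and 0.970 CPM at day 10. At day 60 replicate 1 lay within that range at 0.625 CPM, and replicate 2, the library with endoderm markers, held 5.15 CPM.

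Genes with the most similar course over the 12 libraries were found by the root mean square difference in centred log2 CPM among 14761 or 14762 candidate genes. The closest matches were those of BOC, with NAT10 at 0.0518, EIF3L and MRPL45, of SMO, with SLC19A1 at 0.0891, FBXW9 and PMF1, and of GLI3, with CDH2 at 0.0894, GABPB1-AS1 and MTIF2. GLI2 was nearest to FAF1 (0.0995), ALDH1B1 and CNNM4, GAS1 to NUP62 (0.119), RNASET2 and H3-3A, and PTCH1 to LRRC9 (0.166), CYP39A1 and FBLN7. The scarce genes had looser matches, GLI1 with CX3CL1 (0.329), FOSL2 and GRIN2D, HHIP with MCC (0.362) and ONECUT2, and SHH with TGFB2 (0.444), HSPB8 and ANO1. None of the 9 genes was among the 3 nearest of another.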

How the data were processed

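The main table deposited by the authors gives raw counts, which are whole numbers, by gene symbol and library. The submitters' processing notes name STAR, HTSeq, DESeq2 and the build hg19, and the sources used here give no version, annotation or strand setting. The log2 fold changes and p-values deposited by the authors were used only where their table is named. Levels per kb and exon overlaps use GENCODE 29 gene models, matched by symbol, and no coordinates were carried between builds.

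All 12 libraries entered 1 fit with 4 groups (R 4.3.3, edgeR 4.0.16, limma 3.58.1; TMM factors, filterByExpr, robust quasi-likelihood), and p-values were adjusted over 17757 genes. SEs were taken as the absolute log2 fold change over the root of F. Log2 CPM uses a prior count of 2. The fit was tested on simulated data. DESeq2 1.42.0, other scalings, no filter, a replicate block, a label code term, single codes and leaving out each library were tried as alternatives. Leaving out both B16 wildtype libraries of day 10, and leaving out libraries for the genes of the lists, were chosen after seeing the data.

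The 9 genes, the lists and the comparisons were chosen with earlier results of these data known. The rule names the 9 genes, FEZ1, up to 4 called genes per list and comparison with the largest change (or the 1 with the smallest p, of which some are given), and the 3 nearest profiles per gene, some of which are not reported here. IHH, HHIP-AS1, AFP, FOXA2, NKX2-1, LMX1A, LMX1B, SPON1, NTN1 and single mesenchyme and radial glia markers are given as values beside results they touch. So are the values of list genes in comparisons the rule does not name them for. Replicate numbers do not pair the libraries of day 10: same-numbered wildtype and knockout libraries had correlations of deviations of 0.122, -0.0755, 0.297 and -0.0956.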

Additional observations from a re-analysis of the deposited data

Results flagged for a closer look

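In knockout at day 10, replicate 1 stood apart from the other 3 libraries in SMO, at 238 CPM against 145 to 159 CPM, and in GLI2, at 123 CPM against 105 to 108 CPM. In both genes the gap to the nearest library was larger than Dixon's 95% limit for 4 values, which chance passes in about 1 of 20 groups. The same library has the lowest TMM factor, 0.876.

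For HHIP and SMO, the difference between genotypes at day 10 had opposite signs in different label codes, and this difference between codes was not tested. HHIP was lower in knockout by 3.40 in mean log2 CPM within B16 (-3.40) and higher by 0.62 and 0.25 within B27 and B29. SMO was higher in knockout by 0.52 within B16 and had -0.13 and -0.23 within B27 and B29.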

How the results depend on the processing

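Of 45 single-gene results over their alternatives, 655 values kept sign and side of the threshold, 33 changed sign, 9 became called and 14 lost a call, and of the counts of called genes among the 9, 76 stayed within 1.5 times and 3 did not. Those 3 were 3 genes at day 10 and 1 in the interaction with the B16 libraries alone, and 1 gene at day 60 by DESeq2. The day effects of SHH (2.83 to 4.71 in wildtype over the alternatives, 4.81 to 6.04 in knockout), PTCH1, SMO, GLI3 and BOC kept direction and call in both genotypes under all alternatives tried. The sign changes were these, in log2 fold change, and their cause was not tested. With B16 alone at day 10, SHH had 0.0851 and GLI3 -0.22, and in the interaction SMO had -0.24 and GAS1 -0.30. With B27 and B29 alone at day 10, SMO had -0.17, GLI1 0.40, HHIP 0.49 and GAS1 -0.21. Without both B16 wildtype libraries of day 10, GLI1 had 0.58 and HHIP 0.0305 at day 10, GLI1 -0.64 and GLI2 0.26 in the interaction, and HHIP 1.18 with age in wildtype. Leaving out 1 library at a time gave -0.76 to 0.42 for SHH and -0.0626 to 0.18 for GLI3 at day 10, -0.68 to 1.001 for GLI1, -0.0831 to 0.32 for GLI3 and -0.25 to 0.0534 for BOC at day 60, and -0.19 to 0.12 for GLI2, -0.12 to 0.28 for GLI3 and -0.0598 to 0.19 for GAS1 in the interaction. With the replicate block, 0, 0 and 0 of the 9 genes were called in the genotype comparisons and the interaction, and 6 and 6 with age in wildtype and knockout, where GLI2 (0.0532) in wildtype and GLI1 (0.125), HHIP (0.351) and GAS1 (0.0548) in knockout had those adjusted p, and GLI1 at day 60 had a log2 fold change of 0.0791. A label code term also ended the call of HHIP with age in knockout (adjusted p = 0.210). Over all genes, edgeR's 22 calls at day 10 became 8 with the replicate block and 2025 with B16 alone, and its 4 calls at day 60 became 213 without wildtype replicate 1. Few counts limit SHH, GLI1 and HHIP, and 2 libraries a group limit day 60.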
